A study of Mus musculus with 4 samples.

Results

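The MYC network described here comprises 10 genes, Myc, Mycn, Mycl, Max, Mxd1, Mxd3, Mxd4, Mxi1, Mnt and Mga, chosen by their symbols among the 30282 gene rows of a poly(A) RNA-seq table. All 10 were found and all 10 passed the filter on low values, a 4-library mean no lower than 10, which 14928 genes passed. The libraries came from V6.5 mouse embryonic stem cells in which RPB3, a core subunit of RNA polymerase II, carries a minimal auxin-inducible degron and GFP. All cells were grown with 3 µM CHIR99021 and 0.5 µM PD0325901, inhibitors of GSK3 and MEK, and received doxycycline at 1 µg/ml for 12 h to switch on TIR1, the plant protein that marks degron proteins for destruction. The untreated group (2 libraries) had no further treatment, and the IAA group (2 libraries) was then given IAA, an auxin, at 500 µM for 12 h. A second sentence of the treatment protocol gives a shorter depletion, and the time on the sample labels is used here. Cells lacking the degron but given IAA were not analysed here, and the labels do not say whether the cells are 1 clone or whether replicates are separate cultures, so p-values reflect only how these libraries vary, which may be technical.

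MYC, MYCN and MYCL are basic helix-loop-helix leucine zipper proteins that bind DNA only as pairs with MAX, preferring the E-box CACGTG. MXD1, MXD3, MXD4, MXI1, MNT and MGA pair with the same MAX and counter MYC, mostly by bringing in the SIN3 corepressor or, for MGA, a variant polycomb complex named PRC1.6. In stem cells MYC and MYCN are known for driving ribosomal protein, nucleolar and nucleotide synthesis genes and for releasing paused RNA polymerase II. The series title is about ribosomal protein expression after loss of polymerase subunits, and the protocol presents the poly(A) libraries as a look at secondary effects.

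Libraries held 8724737 to 9194432 whole reads. Values below are normalised read counts, that is, reads divided by the size factor the authors used for each library. Stem cell markers were abundant, with summed values of 56298 to 58199 in the untreated and 60852 to 63065 in the IAA libraries. The sum hides changes both ways: of 10 tested 5 were called higher and 3 lower, 80.0% beside 39.9% of all genes. Tbx3 (0.57), Klf4 (0.52) and Klf2 (0.43) rose most. The 3 that fell, named after their values were seen, were Dppa5a (-0.36), Pou5f1 (-0.24) and Zfp42 (-0.15). Of 8 fibroblast (feeder cell) markers 4 had rows and the others were not analysed here. Their sum was 191 and 242 untreated against 117 and 135 after IAA, with Col3a1 at 0 to 2 and Thy1 (-0.78) and Col1a1 (-0.76) called lower. Of 10 markers of early lineages 5 passed the filter and Eomes (0.29) was called higher. Their sum ran from 474 to 548, with Foxa2 and Cdx2 at 0 or 1. Whether these cells or transcripts had a part in the results below was not tested, and in bulk RNA fewer cells of a type cannot be told apart from less RNA per cell. Polr2c, the gene of RPB3, went from 2726 and 2885 to 3242 and 3158, which does not measure the degraded protein.

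Of the 10 members 3 were called, in a table where 39.9% of genes tested were called. By limma on log2(value + 1), with Benjamini-Hochberg adjustment over all genes and a threshold of 0.05, Max and Mnt rose, Mxi1 fell and the other 7 were not called. Over all genes tested, 11.1% were called higher and 28.9% lower. The median log2 fold change of the 10 members was 0.13, beside -0.11 for all genes tested, and 9 of the 10 lay above that median, the exception being Mxi1. Fold changes here depend on how libraries are scaled. Median-of-ratios factors, which centre the genes near 0 by construction, moved the median of all genes up by 0.10 on the log2 scale, called 40.8% of genes (20.4% higher and 20.5% lower), and gave 4 members higher (Max, Mnt, Mxd3 and Mga) and none lower. In the authors' deposited table, where 12.0% of genes with an adjusted p were called at 0.05 (2.47% higher and 9.57% lower), no member was called. That table also has a label column of the authors' own, which marks 14 genes up and 67 down by a rule not given in the sources used here, and no member is among them. The authors' adjusted p ran from 0.205 for Max to 0.974 for Mycl, and none was given for Myc.

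**Figure D1:**
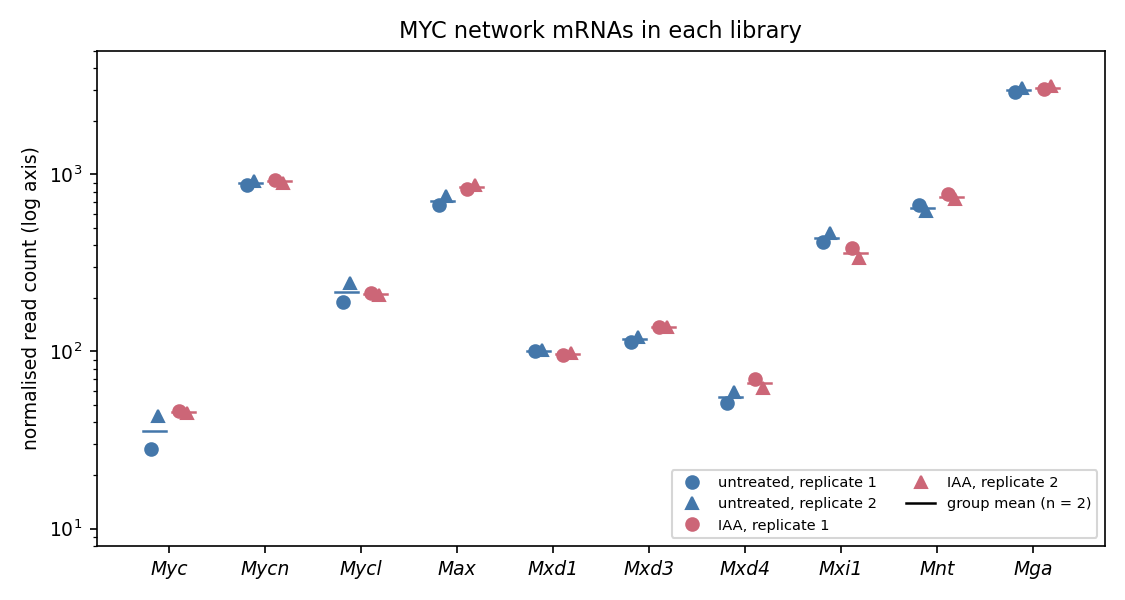
Normalised read counts (log axis) of the 10 network genes in each of the 4 libraries, with lines for group means (n = 2). Counts are not divided by gene length, so heights compare libraries within a gene and not genes, and the IAA libraries of Max lie above both untreated libraries.

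The sequences shown first are the promoters of the 2 members that rose, picked after their values were seen. Both hold the E-box that MAX pairs bind. Promoter windows of 300 bases (250 before and 50 after the start, RefSeq, GRCm38.p6) were found for 9 of the 10 members, all but Myc. CACGTG, which reads the same on both strands, was in 3 of these 9 genes (Max, Mnt and Mxd4) and in 8.09% of the 27025 genes in the promoter table. In Max its first base lies 3 bases before the start, in Mnt 123 bases before and in Mxd4 219 bases before. The 3 windows of Mxi1, which fell, did not have it. Nor did those of Mycn, Mycl, Mxd1, Mxd3 and Mga, which were not called at the deposited scaling. Mxd4, which holds it, was not called either. Whether the E-box bears on these changes was not tested. Each sequence below runs 5′ to 3′ to base 30 after the start, with the E-box in capitals.
Max promoter (chr12:76962219-76962498, minus strand): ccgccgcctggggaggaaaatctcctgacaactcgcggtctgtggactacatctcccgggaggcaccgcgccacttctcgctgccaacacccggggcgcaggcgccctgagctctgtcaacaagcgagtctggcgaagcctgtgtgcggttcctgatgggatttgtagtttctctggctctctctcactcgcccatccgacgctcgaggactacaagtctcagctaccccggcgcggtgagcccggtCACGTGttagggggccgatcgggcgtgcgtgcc
Mnt promoter (chr11:74830674-74830953, plus strand): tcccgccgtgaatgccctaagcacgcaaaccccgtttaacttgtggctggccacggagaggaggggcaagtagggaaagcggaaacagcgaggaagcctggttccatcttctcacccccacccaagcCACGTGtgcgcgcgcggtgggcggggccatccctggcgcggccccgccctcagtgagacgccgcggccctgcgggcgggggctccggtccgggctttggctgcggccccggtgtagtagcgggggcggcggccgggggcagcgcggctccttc

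Among the MYC genes themselves, Mycn made up most of the mRNA and Myc was scarce. Mycn (ENSMUSG00000037169, chromosome 12, 12936093 to 12941914, GRCm38, minus strand, 4 merged exons) encodes the MYC protein that prevails in many stem and progenitor cells. Its normalised read counts were 876 and 920 in the untreated and 931 and 897 in the IAA libraries, so the groups overlapped. The mean went from 898.0 ± 31.1 to 914.0 ± 24.0 (SD, n = 2 per group). The log2 fold change was 0.026 with a 95% interval of -0.10 to 0.15. In limma its adjusted p was 0.760. The rescaled fold change, by median of ratios, was 0.13 (adjusted p = 0.0745).

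Myc (ENSMUSG00000022346, chromosome 15, 61985391 to 61990374, plus strand, 4 merged exons), the founding gene of the family, was read 25 and 37 times in the untreated and 45 and 43 times in the IAA libraries. Its normalised read counts were 28 and 43 against 46 and 45. Both IAA libraries were above both untreated ones, with untreated replicate 1 far below the other 3 libraries. The log2 fold change of 0.38 had a 95% interval of -0.13 to 0.89 and a limma adjusted p of 0.233, so neither a rise nor a level near that before treatment was distinguishable at this depth. Without untreated replicate 1 the fold change was 0.080, and without untreated replicate 2 it was 0.68.

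Mycl (ENSMUSG00000028654, chromosome 4, 122995652 to 123002485, plus strand, 5 merged exons), the third MYC gene, had 190 and 245 untreated and 215 and 209 after IAA. The untreated libraries lay on either side of the IAA ones. Its log2 fold change was -0.025 (95% interval -0.27 to 0.22; limma adjusted p = 0.886), and it turned to 0.079 after median-of-ratios scaling and to 0.16 without untreated replicate 2.

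Levels were compared between genes only per kb of merged exon. On that scale Mycn was at 273 ± 9.44 untreated and 277 ± 7.30 after IAA (SD, n = 2 per group). Mycl was at 53.9 ± 9.63 and 52.5 ± 1.05, and Myc at 13.1 ± 3.90 and 16.7 ± 0.260. Mycn thus took 78.5% to 82.2% of the summed MYC genes in the 4 libraries, Mycl 14.6% to 17.1% and Myc 3.19% to 4.86%. The per-kb ratio of Myc to Mycn, which needs no scaling between libraries, was 0.0388 and 0.0567 untreated and 0.0599 and 0.0608 after IAA. The mean log2 difference was 0.36 (exact permutation test, two-sided p = 0.333, the smallest that 2 against 2 libraries allow), and it was 0.091 without untreated replicate 1 and 0.64 without untreated replicate 2.

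**Figure D2:**
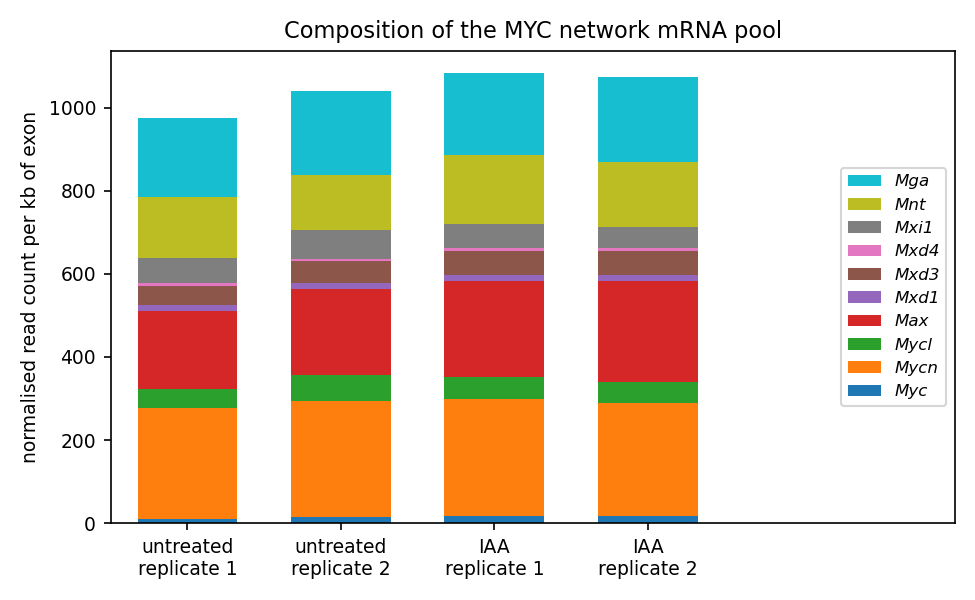
Normalised read counts per kb of merged exon, stacked over the 10 members, for each library. The stack reaches 974.0 and 1040.1 in the untreated and 1083.1 and 1074.6 in the IAA libraries, with Mycn, Max, Mga and Mnt as the widest bands and Myc a thin band at the base.

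Max, the shared partner of the network, rose. Max (ENSMUSG00000059436, chromosome 12, 76937269 to 76962201, minus strand, 8 merged exons) had 672 and 751 untreated and 829 and 875 after IAA. Every IAA library lay above every untreated one, which 22.5% of genes tested also showed in this direction. The mean went from 711.5 ± 55.9 to 852.0 ± 32.5 (SD, n = 2 per group). The log2 fold change was 0.26 (SE 0.07, 95% interval 0.12 to 0.40; limma adjusted p = 0.00349), or 0.37 above the median of all genes. It was called after median-of-ratios scaling too (0.36, adjusted p = 9.74e-07), and was not called in the authors' deposited table (adjusted p = 0.205). Without 1 library the log2 fold change of Max ran from 0.18 (no untreated replicate 1) to 0.34 (no untreated replicate 2). Rounded and unrounded values gave the same range, but whether Max was called in these fits depended on the rounding.

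The antagonists differed in direction from each other. Mnt (ENSMUSG00000000282, chromosome 11, 74830920 to 74845725, plus strand, 6 merged exons), the broadly expressed MAX partner that opposes MYC in growing cells, rose from 676 and 618 to 771 and 725. The means were 647.0 ± 41.0 and 748.0 ± 32.5 (SD, n = 2 per group). Its groups did not overlap. The log2 fold change was 0.21 (SE 0.07, 95% interval 0.07 to 0.35; limma adjusted p = 0.0167) and 0.31 after median-of-ratios scaling (adjusted p = 4.79e-05). On unrounded values the call was lost without untreated replicate 2 (0.15, adjusted p = 0.137) or IAA replicate 1 (0.17, adjusted p = 0.137).

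Mxi1, also called Mxd2 (ENSMUSG00000025025, chromosome 19, 53310518 to 53375810, plus strand, 11 merged exons), encodes a MAX partner that recruits SIN3. It was the member that fell, from 413 and 466 to 384 and 336. Both IAA libraries were below both untreated ones, as in 45.6% of genes tested. The mean went from 439.5 ± 37.5 to 360.0 ± 33.9 (SD, n = 2 per group), with a log2 fold change of -0.29 (SE 0.09, 95% interval -0.47 to -0.10; limma adjusted p = 0.0127). Much of the table moved the same way: Mxi1 lay 0.18 below the median of all genes (difference -0.18). It was not called after median-of-ratios scaling (-0.19, adjusted p = 0.0615). On unrounded values it was not called without untreated replicate 2 (-0.20, adjusted p = 0.117) or IAA replicate 2 (-0.19, adjusted p = 0.152). Mxi1 shares 194 bases of exon with the opposite-strand gene Gm10197, and the strand setting of the counting is not given in the sources used here.

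Mga (ENSMUSG00000033943, chromosome 2, 119897228 to 119969581, plus strand, 24 merged exons) encodes a very large protein with a T-box besides its MAX-binding domain, the scaffold of PRC1.6. It had the most reads of the network, with values of 2908 and 3089 untreated and 3028 and 3159 after IAA, and per kb it stood near Max, at 195 ± 8.34 and 202 ± 6.04. The groups overlapped. Its log2 fold change of 0.045 had a narrow 95% interval, -0.044 to 0.13 (limma adjusted p = 0.426). It was 0.0018 without untreated replicate 1, 0.089 without untreated replicate 2, 0.076 without IAA replicate 1 and 0.015 without IAA replicate 2. After median-of-ratios scaling it was called higher at 0.15 (adjusted p = 0.00161).

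The 3 MXD genes that complete the network, repressors best known from differentiating or S-phase cells, were not called at the deposited scaling. Mxd3 (ENSMUSG00000021485, chromosome 13, 55325168 to 55329823, minus strand) had 113 and 121 untreated and 137 in both IAA libraries, a log2 fold change of 0.23 (95% interval -0.05 to 0.50; limma adjusted p = 0.181) that was called after median-of-ratios scaling (0.33, adjusted p = 0.0472). It shares 105 bases of exon with Prelid1 on the opposite strand, a gene with values of 1820 to 2189. Mxd4 (ENSMUSG00000037235, chromosome 5, 34173883 to 34187720, minus strand) had 51 and 59 against 70 and 62, with 0.26 (95% interval -0.14 to 0.66; limma adjusted p = 0.299; 0.16 without untreated replicate 1), and shares 514 bases of exon with the antisense gene Gm42846. Mxd1 (ENSMUSG00000001156, chromosome 6, 86647042 to 86669161, minus strand) had 100 and 102 against 96 and 98. Its groups did not overlap, but the difference was small: -0.058 (95% interval -0.36 to 0.25; limma adjusted p = 0.787), and 0.039 after median-of-ratios scaling.

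Over the network, 7 members had groups that did not overlap, beside 68.1% of genes tested, 5 of them with IAA above (Myc, Max, Mxd3, Mxd4 and Mnt) and 2 with IAA below (Mxd1 and Mxi1). The summed MYC genes per kb divided by the summed antagonists per kb came to 0.697 and 0.748 untreated and to 0.706 and 0.694 after IAA. The untreated libraries lay further apart than the group means, which differed by -0.045 on the log2 scale (exact permutation test, two-sided p = 0.667). Without untreated replicate 2 the difference was 0.006.

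**Figure D3:**
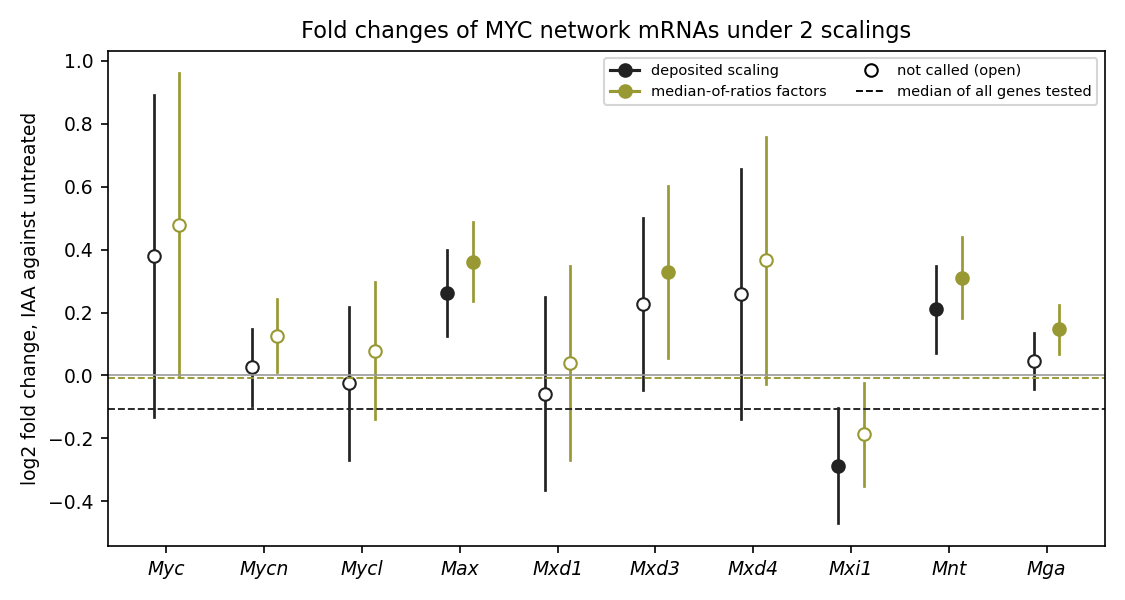
Log2 fold changes (IAA against untreated) of the members with 95% intervals, at the deposited scaling (black) and after median-of-ratios scaling (olive). Filled points were called, and dashed lines mark the median of all genes tested, -0.11 and -0.01. Max and Mnt are filled under both scalings, and Mxi1 under the deposited one.

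Genes outside the network were read from lists of MAX partners, MYC regulators and MYC targets, whose members each had their call from the fit over all genes. Pvt1, the long noncoding gene downstream of Myc on chromosome 15 (62037986 to 62378096, plus strand), fell while Myc had the values above. It had 100 and 101 untreated and 48 and 52 after IAA, and its log2 fold change was -0.99 (SE 0.17; limma adjusted p = 0.000126). In the authors' deposited table its adjusted p was 0.0835. The list of Myc transcription inputs holds LIF and WNT pathway genes and others, among them Ctcf, Cdk7, Hnrnpk and Fubp1. It went both ways: 6 of the 15 tested fell and 4 rose, with a median of -0.06. That is 66.7% called, beside 39.9% of all genes tested (28.9% lower and 11.1% higher). After median-of-ratios scaling 2 were lower and 5 higher, beside 20.5% and 20.4%. Tcf7l1, the repressor of the WNT pathway in naive cells, rose from 442 and 449 to 606 and 572 (0.40). Axin2, a feedback target of the same pathway (0.30), also rose, as did Ctnnb1 (0.21) and Ctcf (0.15), and Lifr, the LIF receptor gene, fell (-0.28). The WNT pathway factor gene Tcf7 (-0.27) fell too, as did Cdk7 (-0.26), Hnrnpk (-0.16), Socs3 (-0.13) and Fubp1 (-0.12), of which Tcf7 was also called after median-of-ratios scaling. Ctnnb1, Ctcf and these 5 were named after their values were seen.

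RNA-binding proteins and microRNA factors known to act on MYC-family mRNAs were lower in 8 of 13 cases and higher in 2, where 28.9% of all genes tested were lower and 11.1% higher. After median-of-ratios scaling 8 were lower and 4 higher, beside 20.5% and 20.4%. At the deposited scaling the median was -0.25 beside -0.11 for all genes. Genes with more reads were called more often. A separate fit of only the 9727 genes with a mean of at least 100 called 3754 lower and 1503 higher. Of these calls, 4867 were shared with the fit over all 14928 genes. Whether read depth bears on the calls of this list was not tested. Lin28a, which blocks the maturation of let-7 microRNAs, fell from 1409 and 1522 to 712 and 656, with -1.10 as its log2 fold change (SE 0.06; limma adjusted p = 1.14e-10). Its paralogue Lin28b rose (0.32), from 685 and 729 to 876 and 885. Igf2bp2 (-0.53) and Pabpc1 (-0.35) fell, and Igf2bp1, whose protein shields the coding region of MYC mRNA, rose (0.31) from 3556 and 3754 to 4690 and 4388. Lin28b and Igf2bp1 were named after their values were seen.

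Mycn is a known let-7 target, so the sites are shown beside these values. Matches of 7 bases were sought in the longest annotated 3′ UTR of each gene (GENCODE M21), either CTACCTC, opposite let-7 bases 2 to 8, or TACCTCA, with an A opposite base 1. The 2 motifs overlap, a joint match counts as 1, and only the transcript strand was read. Mycn had 2 matches in 913 bases, where 10.6% of 3′ UTRs within 20% of that length had any, and Myc had none in 466 bases. Lin28a had 2 matches in 2775 bases, of a class in which 26.9% had any. Over the network 6 members had a match (Mycn, Mycl, Mxd1, Mxd4, Mnt and Mga), beside 14.4% of all genes with a 3′ UTR. The 5 besides Mycn had 1 each in longer 3′ UTRs, of lengths at which 21.3% to 39.8% had any. Let-7 itself was not measured in these libraries. The 8 let-7 members in RefSeq share 1 seed, in capitals in the microRNA, and capitals in the sites mark the match.
mmu-let-7a-5p: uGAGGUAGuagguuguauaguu
Mycn site 1 (chr12:12936487-12936516, minus strand): tactgtaagaaTACCTCAatgtttgagggg
Mycn site 2 (chr12:12936116-12936145, minus strand): gcactttgaaaTACCTCAtgtttatgaaaa
Lin28a site 1 (chr4:134005178-134005207, minus strand): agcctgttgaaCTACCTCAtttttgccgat
Lin28a site 2 (chr4:134004540-134004569, minus strand): tcgccacaaacCTACCTCActgtgttgaaa

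Factors that set the half-life of MYC proteins had 4 higher and 5 lower of 22 tested, with a median of -0.07. That is 40.9% called, beside 39.9% of all genes tested (11.1% higher and 28.9% lower). After median-of-ratios scaling 8 were higher and 2 lower, beside 20.4% and 20.5%. Usp28, the deubiquitinase that counters the MYC ligase FBXW7, fell from 1672 and 1756 to 1022 and 1062 (-0.72, SE 0.05; limma adjusted p = 3.09e-09). Fbxw7 itself was not called (0.16), and was called higher after median-of-ratios scaling (0.26). The GSK3 genes Gsk3a (0.25) and Gsk3b (0.20), whose kinases mark MYC for FBXW7 and are inhibited in this medium, were among those that rose, and so was Usp7 (0.11). Huwe1 (-0.21), Btrc (-0.17), Ppp2r1a (-0.16) and Set (-0.09) fell. After median-of-ratios scaling Btrc and Ppp2r1a were not called, and Set stood at 0.01. All of these but Usp28 and Gsk3a were picked after their values were seen.

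Cofactors on which MYC acts were lower in 9 of 15 cases and higher in 3, beside 28.9% and 11.1% of all genes tested, and their median was -0.17 beside -0.11. After median-of-ratios scaling 5 were lower and 3 higher, beside 20.5% and 20.4%. Here too, genes with more reads were called more often at the deposited scaling. The separate fit of only the 9727 genes with a mean of at least 100 called 3754 lower and 1503 higher. Whether read depth bears on the cofactor calls was not tested. Brd8 (-0.39), Ruvbl2 (-0.33) and Kat2a (-0.28), parts of acetylase and remodelling complexes, fell most. Zbtb17, the gene of the MYC partner MIZ1 (0.27), and Ep300 (0.15) were among those higher, named after their values were seen. For the SIN3 corepressor of the MXD proteins, 3 of 14 were higher and 4 lower, beside 11.1% and 28.9% of all genes tested. The median of this list was -0.09 beside -0.11. After median-of-ratios scaling 5 were higher and 3 lower, beside 20.4% and 20.5%. Sap30 (0.37), Hdac1 (0.20) and Arid4b (0.18) rose and Ing2 (-0.33), Sin3a (-0.32), Suds3 (-0.30) and Rbbp7 (-0.13; -0.03 and not called after rescaling) fell. Of these Hdac1, Arid4b, Suds3 and Rbbp7 were picked once values were known. In the sister branch that pairs with MLX, Mlxip fell (-0.25; -0.14 and not called after median-of-ratios scaling), and Mlx (0.01) and Mlxipl (0.10) were not called.

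**Figure D4:**
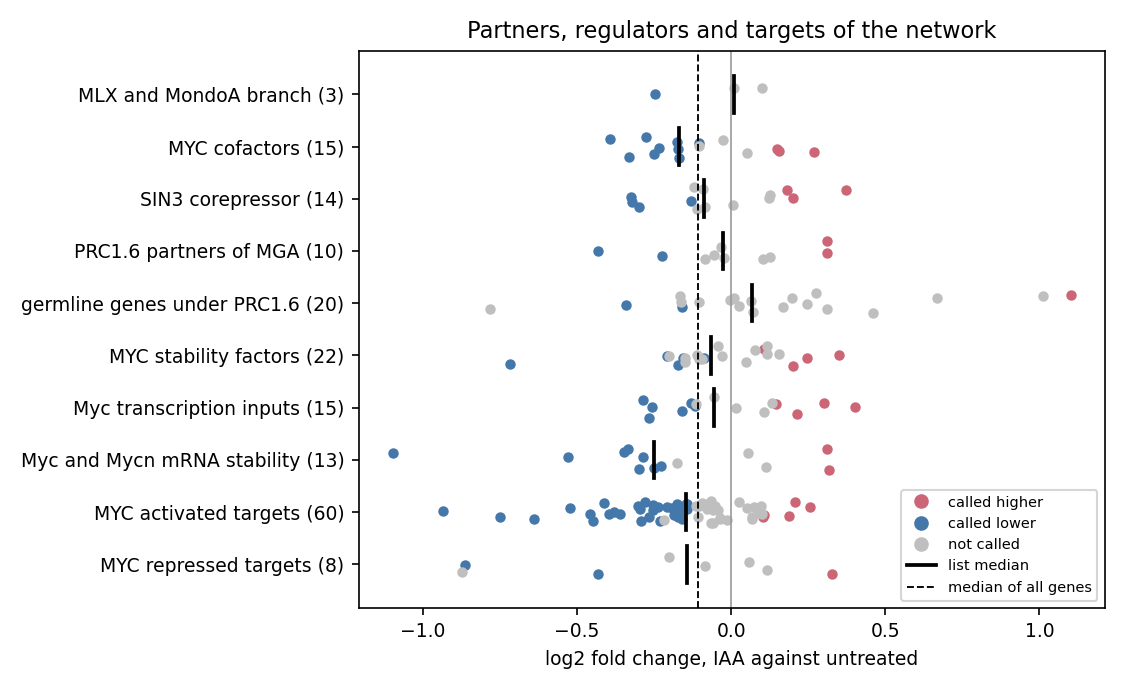
Log2 fold change of each tested gene in 10 lists of partners, regulators and targets (number tested in brackets), coloured by call. Black bars are list medians and the dashed line is the median of all genes tested, -0.11. The list of mRNA stability factors has the lowest median, -0.25, and the germline list the highest, 0.07.

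MGA and MAX hold together PRC1.6, which keeps germ cell genes silent in stem cells. Of its 10 other subunits tested, E2f6 and Rybp rose and Pcgf6 and Cbx1 fell, with a median of -0.03. That is 40.0% called, beside 39.9% of all genes tested. After median-of-ratios scaling 3 were higher and 2 lower, beside 20.4% and 20.5% of all genes. Pcgf6, the subunit that defines the complex, went from 969 and 984 to 745 and 702 (-0.43, SE 0.06; limma adjusted p = 9.27e-06). E2f6, a repressor that guides it to promoters, went from 301 and 359 to 405 and 411 (0.31), and Rybp from 1802 and 1854 to 2287 and 2253 (0.31). Cbx1 (-0.22) was named after its values were seen.

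Germline genes known to be held down by this complex were nearly all without a call. Of 20 tested 1 was higher and 2 lower, 15.0% called beside 39.9% of all genes, and the median was 0.07. After median-of-ratios scaling 6 were higher and 1 lower, beside 20.4% and 20.5% of all genes. Several had low values, among them Tex101 (14 and 15 untreated) and Tdrd1 (16 and 13), named after their values were seen. At such values a change is less likely to be called, so a missing call does not show an unchanged level. Taf7l, a germ cell relative of a TFIID subunit, rose from 27 and 24 to 61 and 51 (1.10, SE 0.24; limma adjusted p = 0.000953). No adjusted p was given for it in the authors' deposited table. Sohlh2 (-0.34) and the meiotic cohesin gene Stag3 (-0.16; not called after median-of-ratios scaling) fell. Ddx4, with 290 and 280 against 252 and 278, and Dazl, with 208 and 201 against 198 and 214, were not called, and both were named after their values were seen. Of 19 germline genes with a promoter window 11 (57.9%) held CACGTG, beside 8.09% of the 27025 genes in the promoter table, tested or not. The list was drawn from genes known as targets of a complex that contains MAX, so this share describes how it was composed.

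Among genes widely described as induced by MYC, 31 of 60 tested were lower and 5 higher, where 28.9% and 11.1% of all genes tested were. The median was -0.15 against -0.11 for all genes tested. After median-of-ratios scaling 22 were lower and 12 higher (20.5% and 20.4% over all genes) and the median was -0.045. By the adjusted p of the authors' deposited table, taken at 0.05, 19 were lower and none higher. Of all genes with an adjusted p there, 9.57% were lower and 2.47% higher. The authors' own label, though, marks none of the 60 up or down. Genes with more reads were called more often at the deposited scaling. The separate fit of only the 9727 genes with a mean of at least 100 called 3754 lower and 1503 higher. Whether read depth bears on the calls of these targets was not tested. Prmt3, an arginine methylase of a ribosomal protein, went from 720 and 670 to 365 and 361 (-0.93, SE 0.07; limma adjusted p = 7.17e-09). Tert, the catalytic subunit of telomerase, went from 580 and 567 to 349 and 332 (-0.75), and Prps2, an enzyme of nucleotide precursor synthesis, from 418 and 430 to 248 and 298 (-0.64). These are the 3 largest called changes of the list. The 5 that rose, named after their values were seen, were Imp4 (0.25), Grwd1 (0.21), Wdr43 (0.19), Odc1 (0.11) and Nolc1 (0.10), most of them nucleolar. Of the 9 genes described as repressed by MYC, 8 were tested, with a median of -0.14. Cdkn1a, the p21 inhibitor of cyclin-dependent kinases, rose from 1698 and 1956 to 2287 and 2284 (0.33), and Ndrg2 (-0.86) and Gadd45a (-0.43, at the threshold and not called after median-of-ratios scaling) fell.

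Of 52 induced targets with a promoter window 19 (36.5%) held CACGTG, again beside 8.09% of the 27025 genes in the promoter table, tested or not. Among the genes tested that had a promoter window 1256 held it and 9461 did not. These targets are known in part from MYC binding, so the share describes how the list was composed. The E-boxes of the targets that changed most in the germline and induced lists are shown with 12 bases on either side.
Taf7l (chrX:134476522-134476551, minus strand): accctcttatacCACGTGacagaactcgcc
Prmt3 (chr7:49778333-49778362, plus strand): gccccctacgccCACGTGacccggaagcgc
The E-box of Taf7l begins 49 bases before its start and that of Prmt3 13 bases before. Genes with these letters moved both ways here, Taf7l, Max and Mnt higher and Prmt3 lower. Of the 1256 tested genes with them 180 were called higher and 395 lower, and of the 9461 without them 1071 and 2885.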

How the data were processed

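Poly(A) RNA was sequenced from 4 libraries in 2 groups, assigned by sample title. Per the submitters' processing notes, the builds were mm10 and dm6, and the tools, listed with no roles, included DESeq2, featureCounts, STAR, Bowtie2 and cutadapt 1.18. Which annotation was counted is not given in the sources used here. In each library column the authors deposited scores, that is, read counts divided by 1 factor per library (0.88, 0.87, 0.98 and 0.95) and rounded, as worked out from the values. The authors' mean over the 4 libraries is a signal value without rounding, and with it whole reads were recovered for 100% of genes (tolerance 0.001). Whether the factors come from mouse or spike-in reads is not stated. The authors also deposited log2 fold changes, their standard error and Wald statistic as scores, and p-values with adjusted p-values.

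Genes with a mean of at least 10 (14928) were fitted with limma 3.58.1 in R 4.3.3 on log2(value + 1) with an empirical Bayes trend, two-sided, adjusted by Benjamini-Hochberg over all of them and called under 0.05. Fold changes are on this scale, which understates low genes. The script was checked on simulated data. Exon lengths, coordinates and 3′ UTRs are GENCODE M21 on GRCm38, and promoters and microRNAs are RefSeq on GRCm38.p6. Alternatives were other filters (none, or a mean of at least 100), pseudocounts (0.5 and 5), thresholds (0.01 and 0.1) and scalings, voom, the authors' tests, a replicate block and leaving out each library. Unrounded values were added after seeing the data. Results without 1 library are from rounded values unless said otherwise.

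The members and lists were chosen with earlier results of these data known. Named genes are the 10 members, Polr2c, Pvt1, up to 3 called genes of largest change per list (or the 2 of highest mean where none was called), and the 3 genes closest in profile to Myc, Mycn and Max, and any other is said to be named after its values were seen. Single values of some called list members are not reported here, though list counts and medians include them.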

Additional observations from a re-analysis of the deposited data

How the results depend on the processing

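Counts of calls depended on the model and filter. The 5962 genes called became 817 with no filter on low values and 1384 in the authors' deposited tests. Leaving out 1 library on the rounded values gave 0 to 0 by limma, with 4734 to 5070 genes at an unadjusted p under 0.05, while the same fits on unrounded values called 4829 to 5347 genes. Over all 14928 genes tested, calls higher and lower were 1650 and 4312, and 1037 and 3060 at an adjusted p under 0.01. They were 3039 and 3054 with median-of-ratios factors, and 3083 and 2983 with library totals. With no filter they were 179 and 638 of 30282, and in the authors' tests 284 and 1100 of 11495. Members called higher (2) became 4 with median-of-ratios factors or library totals, 1 at an adjusted p under 0.01, and 0 with no filter and in the authors' tests. Without 1 library they were 0 to 0 on rounded values and 1 to 2 on unrounded ones. Members called lower (1) became 0 with median-of-ratios factors, library totals, no filter, the authors' tests and the 0.01 threshold, and without 1 library were 0 to 0 on rounded values and 0 to 1 on unrounded ones.

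The median of the MYC-induced genes (-0.15) was -0.045 with median-of-ratios factors and -0.041 with library totals, and -0.175 to -0.10 without 1 library. The log2 ratio of MYC genes to antagonists ran from -0.096 to 0.006 without 1 library. Values that changed sign were those of Mxd1 (0.039 with median-of-ratios factors, 0.042 with library totals), Mycl (0.079 and 0.083, and 0.16 without untreated replicate 2 on rounded or unrounded values) and Mycn (-0.0097 and -0.0094 without untreated replicate 1, and -0.0012 without IAA replicate 1). Without 1 library Mycl ran from -0.21 to 0.16 and Mycn from -0.0097 to 0.061. Causes of these changes were not tested.

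The labels share replicate numbers, but deviations of same-numbered libraries did not correlate (r = 0.002 over 14928 genes). With a replicate block 5958 genes were called and the members called did not change. In that block the log2 ratio of Myc to Mycn differed by 0.36 and that of MYC genes to antagonists by -0.045. Because each replicate number is in both groups, these mean differences equal those without the block by construction, so they test nothing. Myc, Mxd4 and Mxd1 held under 100 reads in every library, which limits their precision.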

Other observations

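Over all genes tested that had a promoter window, those with CACGTG (1256) had a median log2 fold change of -0.09, and those without it (9461) of -0.11. Of the former 180 were called higher and 395 lower, and of the latter 1071 and 2885. Among the MYC-induced genes the medians were -0.17 for 19 with the E-box and -0.10 for 33 without. Among the germline genes they were 0.25 for 11 and 0.003 for 8. These are descriptions without a test.

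Profiles over the 4 libraries were compared by the Euclidean distance between log2(value + 1) values centred on each gene's mean, among 9421 genes with a mean of at least 100, leaving out members, rows without a symbol, repeated symbols and predicted genes (Gm or Rik names). The genes closest to Max were Efhd2 (0.022), Ctdp1 (0.025) and Dipk1a (0.025). Those closest to Mycn were Abcf2 (0.011), Lmbr1l (0.012) and Slc19a2 (0.012). For Myc, the closest were Slc66a1 (0.112), Hira (0.135) and AI837181 (0.136). With 4 libraries in 2 groups a small distance says only that level and spread moved alike.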
